A study of Mus musculus with 15 samples.

Results

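Serpins grouped here as shields of cells against granzymes were followed through bulk mouse melanoma grafts. They were 6 genes of the deposited gene table, chosen by symbol: Serpinb9, Serpinb9b and Serpinb6b of the intracellular clade B, and Serpina3f, Serpina3g and Serpina3n of the Serpina3 cluster. All 6 symbols were present among the 23420 of the table, and all 6 were among the 13592 genes that reached 1 TPM (a transcript level corrected for length and relative to the library total) in at least 3 libraries. The granzyme B gene, Gzmb, was measured beside them.

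Killer T cells and NK cells load granzymes, serine proteases, into granules with perforin and release them onto a target cell, where cleavage of death substrates such as Bid follows. A serpin presents a reactive loop as bait, is cut by the protease and traps it. Intracellular serpins are known to protect the killer cell from its own granzymes, to protect antigen-presenting cells, and, in tumors that express them, to protect the tumor cell.

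The 15 libraries were 3 each of 5 groups of grafts in female C57BL/6 mice aged 8 weeks. The groups were UV2 tumors given anti-PD-1, UV2 tumors given isotype control antibody, parental tumors given triple therapy, parental tumors given anti-PD-1, and parental tumors given isotype control antibody. Parental is the melanoma line D4M.3A.3, and UV2 is D3UV2, a line with putative neoantigens induced by UVB, so each arm is 1 cell line in 1 mouse strain. Every mouse received 1000000 cells in each flank, treatment of the left graft fell on days 8, 10 and 12, and collection of the tumors on day 13. For triple therapy, the sample characteristics name anti-PD-1, ablative fractional photothermolysis (a fractional laser, days 8 and 12) and imiquimod (an agonist of Toll-like receptor 7), whereas the protocol text lists the isotype antibody with laser and imiquimod, and the difference is unresolved. Whether replicate libraries stem from separate mice is not stated, so p-values measure only the spread between these libraries, which may be technical.

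Each library had 12239 to 13993 genes at 1 TPM or more. The grafts were bulk tissue. Of 7 melanocyte lineage markers only Mitf and Tyr passed the filter, while Sox10, Tyrp1, Dct, Pmel and Mlana did not. Eif2s3y, a gene of the Y chromosome, had 9.32 to 20.3 TPM in the parental isotype and anti-PD-1 libraries, although the mice were female. It had 0.29, 10.1 and 5.11 TPM after triple therapy and 0 TPM in UV2 libraries. Mitf had 14.2, 11.0 and 9.61 TPM after triple therapy and 5.72 to 11.8 TPM in parental isotype and anti-PD-1 libraries. The share of graft cells in each library was not tested. Summed over 8 keratinocyte markers, the 3 triple therapy libraries held 136, 1329 and 18349 TPM, against 8.31 to 10.3 TPM in parental isotype tumors, and 1 UV2 anti-PD-1 library held 346 TPM. In bulk tissue, fewer cells of a type and less RNA per cell cannot be told apart.

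UV2 tumors carried more transcript of 4 of the 6 serpins than parental tumors and less of 1, over isotype and anti-PD-1 tumors pooled (n = 6 each). Serpina3g, Serpina3f, Serpinb6b and Serpinb9 rose, Serpina3n fell, and Serpinb9b did not pass the test. The background was wide, since 33% of the 13592 genes were called in this comparison, 13.4% higher and 19.6% lower. A call means an adjusted p under 0.05 in limma over all genes, on log2(TPM + 1). The members' median log2 fold change was 1.21, beside -0.12 for all genes tested.

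**Figure D1:**
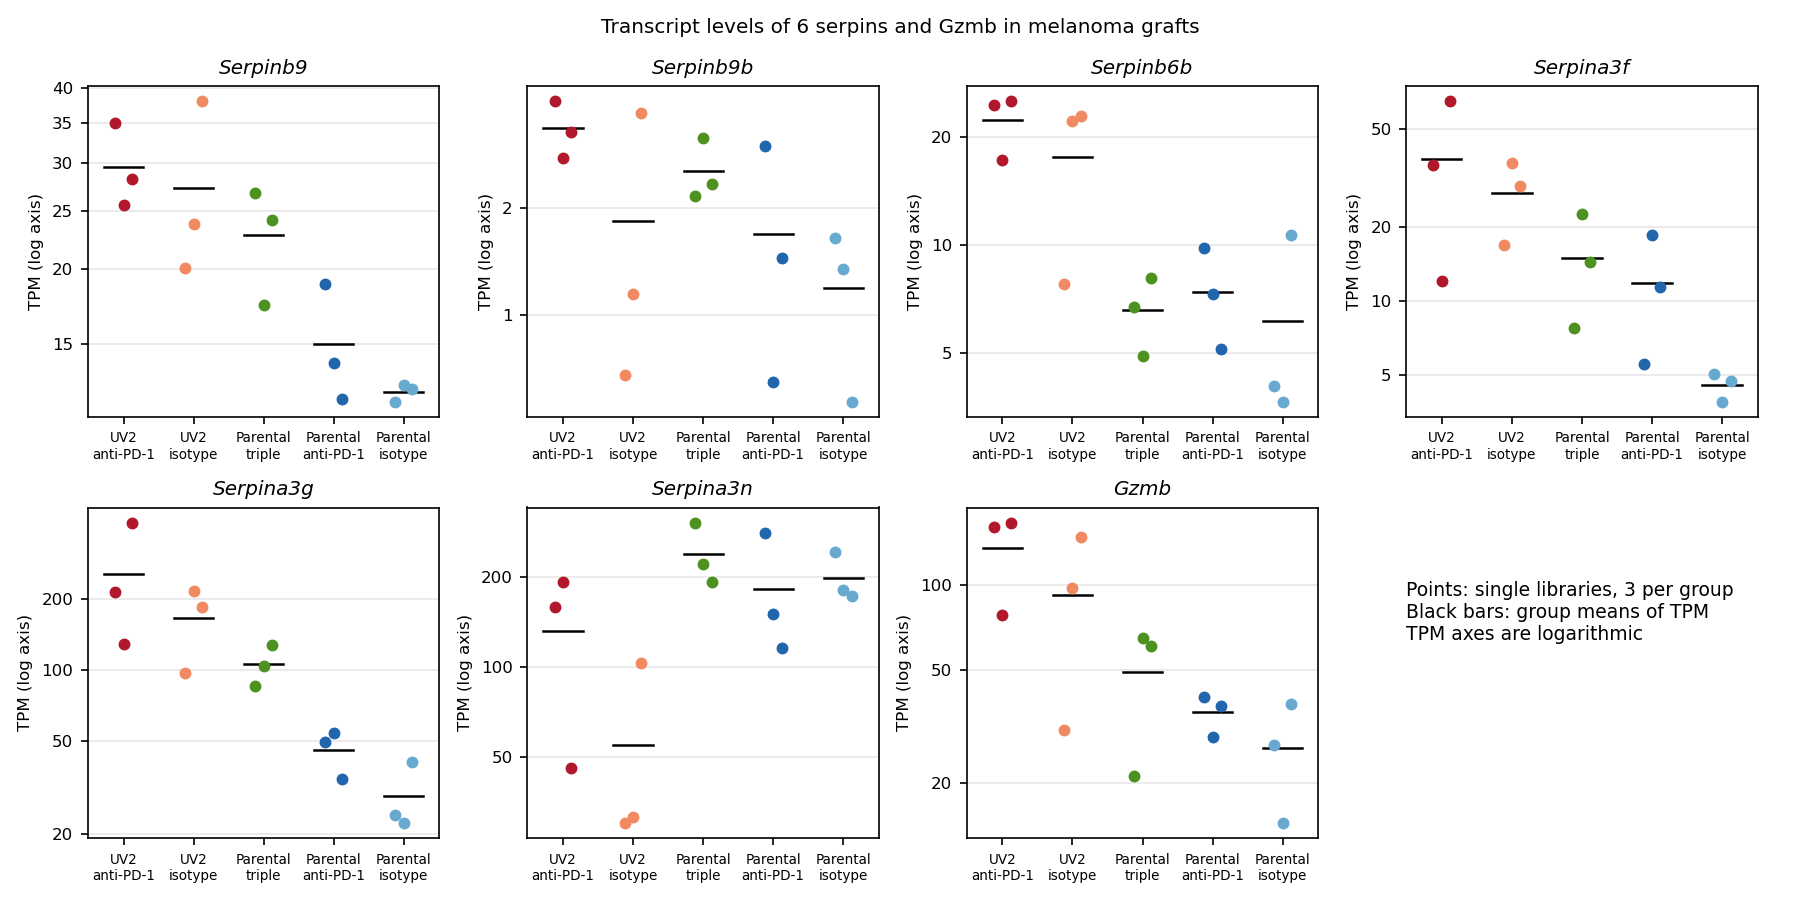
TPM of the 6 serpins and Gzmb on logarithmic axes, with 1 point per library and a bar at the mean of each group of 3. Serpina3g stood at 96.6 TPM or more in every UV2 library and at 53.6 TPM or less in the 6 parental isotype and anti-PD-1 libraries, with triple therapy at 85.5 to 127.8 TPM, while Serpina3n was lowest in UV2 isotype tumors.

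Serpinb9 encodes the mouse inhibitor of granzyme B and lies on chromosome 13 at 33003250 to 33017957 of GRCm38. It measured 35.0, 25.5 and 28.2 TPM in UV2 anti-PD-1 tumors and 20.1, 23.7 and 38.0 TPM in UV2 isotype tumors. Triple therapy tumors had 26.8, 17.5 and 24.1 TPM, parental anti-PD-1 tumors 18.9, 14.0 and 12.2 TPM, and parental isotype tumors 12.1, 12.8 and 12.7 TPM. Every UV2 library was above every parental isotype and anti-PD-1 library. Over both treatments the mean was 28.4 ± 6.86 TPM in UV2 and 13.8 ± 2.60 TPM in parental tumors (SD, n = 6 each), a log2 fold change of 0.98 ± 0.17 (SE; adjusted p = 0.00244). The order of group means ran UV2 anti-PD-1, UV2 isotype, triple therapy, parental anti-PD-1, parental isotype, and the ranges of each pair of neighbours overlapped.

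Serpinb9b, a neighbour at 33027416 to 33041884 on the same strand, encodes an inhibitor of granzyme M in the mouse and was the scarcest member. Its levels were 4.01, 2.77 and 3.29 TPM in UV2 anti-PD-1 tumors, 0.68, 1.15 and 3.71 TPM in UV2 isotype tumors, 2.16, 3.15 and 2.34 TPM after triple therapy, 2.99, 0.65 and 1.45 TPM in parental anti-PD-1 tumors, and 1.65, 1.35 and 0.57 TPM in parental isotype tumors. Group means ran UV2 anti-PD-1, triple therapy, UV2 isotype, parental anti-PD-1, parental isotype, and every pair of neighbours overlapped. The pooled values were 2.60 ± 1.38 TPM in UV2 and 1.44 ± 0.876 TPM in parental tumors (SD, n = 6 each), with a log2 fold change of 0.52 ± 0.28 (adjusted p = 0.153). Its target did not differ detectably either: Gzmm had 1.09 ± 0.345 TPM in UV2 and 0.660 ± 0.440 TPM in parental tumors (log2 fold change 0.36 ± 0.20, adjusted p = 0.170).

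The promoter windows of these neighbours run from 250 bases before to 50 after the RefSeq start (GRCm38.p6, plus strand). They are shown because the genes are close relatives whose windows differ in letters. Only Serpinb9 was called, but the fold changes of Serpinb9 and Serpinb9b were not compared with each other. Capitals mark the match to an interferon-stimulated response element (GAAA, any pair of bases, GAAA) in Serpinb9, which lies on the minus strand from 46 bases before the start and so reads as its reverse complement, and the bases aligned to it in Serpinb9b. The windows are chr13:33004291-33004590 for Serpinb9, inside the annotated gene because the RefSeq start differs from the GENCODE gene start, and chr13:33027164-33027463 for Serpinb9b.
Serpinb9: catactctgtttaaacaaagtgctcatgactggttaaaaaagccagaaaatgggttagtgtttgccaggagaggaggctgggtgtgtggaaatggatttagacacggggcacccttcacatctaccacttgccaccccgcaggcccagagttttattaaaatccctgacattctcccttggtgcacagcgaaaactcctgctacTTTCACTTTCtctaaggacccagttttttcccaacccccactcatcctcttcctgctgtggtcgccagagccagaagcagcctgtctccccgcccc
Serpinb9b: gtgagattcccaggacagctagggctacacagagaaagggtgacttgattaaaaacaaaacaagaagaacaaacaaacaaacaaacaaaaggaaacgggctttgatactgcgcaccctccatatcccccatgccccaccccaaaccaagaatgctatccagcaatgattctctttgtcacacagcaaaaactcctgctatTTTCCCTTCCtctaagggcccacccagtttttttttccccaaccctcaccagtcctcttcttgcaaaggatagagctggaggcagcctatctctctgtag
Over 277 aligned bases 67.5% were identical. Counted from 1 at the 5′ end of the Serpinb9 site, the aligned bases of Serpinb9b carry A5C and T9C, and the window has no match on either strand. Of 32851 promoter windows of this length, 3.44% hold the element on either strand. A match is a description of letters and not of binding. The window of Serpinb6b, which was called higher, holds no match.

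Serpinb6b encodes an inhibitor of granzyme A in the mouse and lies beside Serpinb9 at 32965209 to 32979067 on chromosome 13. Levels were 24.6, 17.3 and 25.2 TPM in UV2 anti-PD-1 tumors, 7.80, 22.2 and 22.9 TPM in UV2 isotype tumors, 6.72, 4.91 and 8.10 TPM after triple therapy, 9.79, 7.31 and 5.14 TPM in parental anti-PD-1 tumors, and 4.04, 3.65 and 10.7 TPM in parental isotype tumors. UV2 isotype replicate 1 lay among the parental libraries and the other UV2 libraries lay above all of them. UV2 tumors averaged 20.02 ± 6.60 TPM and parental tumors 6.77 ± 2.99 TPM (SD, n = 6 each), a log2 fold change of 1.44 ± 0.30 (adjusted p = 0.00503). Its target Gzma also rose, to 61.6 ± 47.1 TPM in UV2 against 17.2 ± 5.23 TPM in parental tumors (1.57 ± 0.39, adjusted p = 0.0109). Group means ran UV2 anti-PD-1, UV2 isotype, parental anti-PD-1, triple therapy, parental isotype, and every pair of neighbours overlapped.

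Serpina3g, an interferon-induced inhibitor of lysosomal cathepsins that acts inside the cell, showed the largest fold change of the 6 members between UV2 and parental tumors. It is at 104236245 to 104241939 on chromosome 12. UV2 anti-PD-1 tumors had 213.8, 128.3 and 421.9 TPM and UV2 isotype tumors 96.6, 216.8 and 184.8 TPM. Triple therapy tumors had 85.5, 104.0 and 127.8 TPM, parental anti-PD-1 tumors 49.1, 53.6 and 34.4 TPM, and parental isotype tumors 24.1, 22.3 and 40.6 TPM. The UV2 and triple therapy libraries all lay above the parental isotype and anti-PD-1 libraries. UV2 tumors averaged 210.4 ± 114 TPM and parental tumors 37.3 ± 12.9 TPM (SD, n = 6 each), a log2 fold change of 2.38 ± 0.29 (adjusted p = 0.00073). Group means ran UV2 anti-PD-1, UV2 isotype, triple therapy, parental anti-PD-1, parental isotype, and among neighbours only triple therapy and parental anti-PD-1 did not overlap.

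Serpina3f, the close relative of Serpina3g at 104214544 to 104221129, had 35.7, 12.1 and 64.7 TPM in UV2 anti-PD-1 tumors and 16.9, 36.5 and 29.3 TPM in UV2 isotype tumors. Triple therapy tumors had 7.80, 22.5 and 14.5 TPM, parental anti-PD-1 tumors 5.57, 18.6 and 11.5 TPM, and parental isotype tumors 5.09, 3.91 and 4.74 TPM. The spread within UV2 anti-PD-1 tumors was wide, and its lowest library lay within the parental anti-PD-1 range. The pooled means were 32.5 ± 18.6 TPM in UV2 and 8.23 ± 5.76 TPM in parental tumors (SD, n = 6 each), a log2 fold change of 1.86 ± 0.39 (adjusted p = 0.00544). The order of group means was that of Serpina3g, and among neighbours only parental anti-PD-1 and parental isotype did not overlap.

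Serpina3n is a secreted acute-phase serpin that inhibits granzyme B in the mouse, at 104406729 to 104414329 on chromosome 12. It ran the other way. UV2 anti-PD-1 tumors had 158.5, 193.5 and 45.7 TPM, and UV2 isotype tumors had 30.0, 31.5 and 103.3 TPM. Triple therapy tumors had 305.1, 221.5 and 192.5 TPM, parental anti-PD-1 tumors 280.3, 150.1 and 116.2 TPM, and parental isotype tumors 242.3, 181.2 and 172.8 TPM. The 3 UV2 isotype libraries were below all parental libraries, whereas UV2 anti-PD-1 tumors overlapped the parental anti-PD-1 tumors. Group means ran triple therapy, parental isotype, parental anti-PD-1, UV2 anti-PD-1, UV2 isotype, and every pair of neighbours overlapped. UV2 averaged 93.7 ± 70.0 TPM and parental tumors 190.5 ± 60.5 TPM (SD, n = 6 each), and the level fell by 1.33 on the log2 scale (SE 0.39; adjusted p = 0.0215). This call was lost without parental anti-PD-1 replicate 1 (-1.15, adjusted p = 0.0526), without parental isotype replicate 1 (-1.25, adjusted p = 0.0561) or without UV2 isotype replicate 2 (-1.20, adjusted p = 0.0564). The other 4 calls held whichever of the 15 libraries was left out.

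The Serpina3 promoter windows are shown because relatives of 1 cluster moved in opposite directions. They are chr12:104235897-104236196 for Serpina3g, chr12:104214294-104214593 for Serpina3f and chr12:104406458-104406757 for Serpina3n (RefSeq, GRCm38.p6, plus strand). Capitals mark the TTCNNNGAA match, the letters of an interferon gamma activated site, and in Serpina3n the bases aligned to it.
Serpina3g: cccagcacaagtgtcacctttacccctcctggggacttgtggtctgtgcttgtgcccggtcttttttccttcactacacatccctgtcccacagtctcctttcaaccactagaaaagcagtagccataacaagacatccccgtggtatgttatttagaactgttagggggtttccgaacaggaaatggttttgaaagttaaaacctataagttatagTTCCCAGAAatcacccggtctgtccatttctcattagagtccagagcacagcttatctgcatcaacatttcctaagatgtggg
Serpina3f: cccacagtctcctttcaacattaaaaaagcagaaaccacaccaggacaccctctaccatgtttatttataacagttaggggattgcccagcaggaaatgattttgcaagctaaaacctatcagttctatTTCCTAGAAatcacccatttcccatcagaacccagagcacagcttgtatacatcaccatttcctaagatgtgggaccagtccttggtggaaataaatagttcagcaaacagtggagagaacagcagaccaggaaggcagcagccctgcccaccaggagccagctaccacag
Serpina3n: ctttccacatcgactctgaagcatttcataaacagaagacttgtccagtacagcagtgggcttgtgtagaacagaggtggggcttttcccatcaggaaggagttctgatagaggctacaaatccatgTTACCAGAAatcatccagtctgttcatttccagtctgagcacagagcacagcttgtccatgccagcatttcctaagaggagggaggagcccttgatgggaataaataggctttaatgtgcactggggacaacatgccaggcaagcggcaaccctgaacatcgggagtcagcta
The match starts 33 bases before the Serpina3g start and 121 bases before the Serpina3f start, where the aligned site differs by C5T and still holds the motif. Another RefSeq start of Serpina3f places the same site 210 bases before it. In Serpina3n the aligned bases differ from those of Serpina3g by C3A, counted from 1 at the 5′ end of the Serpina3g site, and the window holds no match. TTCNNNGAA, which is its own reverse complement, occurs in 8.30% of the 32851 windows, and the response element shown for Serpinb9 was searched on both strands and found in none of these 3. Over the aligned bases Serpina3g shares 83.7% with Serpina3f (202 bases) and 69.6% with Serpina3n (207 bases). The Serpinb9b and Serpinb6b windows hold neither motif, and the Gzmb window holds a TTCNNNGAA match (TTCATAGAA).

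Reads can be split between such relatives. Of all distinct stretches of 50 bases in the annotated transcripts, the share found also in another gene was 15.5% for Serpina3g, 10.6% for Serpina3f, 6.90% for Serpina3n, 2.92% for Serpinb6b, 0.478% for Serpinb9b and 0.378% for Serpinb9. Serpina3g shared most with Serpina3h (195 of its 340 shared stretches), then with Serpina3i and Serpina3f, and Serpina3f shared most with Serpina3g, then with Serpina3e-ps and Serpina3i. The division of reads among these genes is uncertain where they fell in shared stretches.

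Taken by treatment, the line difference was called for fewer members. Under anti-PD-1, Serpina3g (log2 fold change 2.31 ± 0.40, adjusted p = 0.0106), Serpinb9 (0.94 ± 0.24, adjusted p = 0.0221) and Serpinb6b (1.49 ± 0.42, adjusted p = 0.0279) rose in UV2 tumors, 3 of 6 members against 26.4% of all genes (9.31% higher and 17.1% lower). These 3 also lay wholly above parental anti-PD-1, as did 16.9% of all genes, and no member lay wholly below, as did 34.3%. Serpina3f (1.43 ± 0.55, adjusted p = 0.0677), Serpinb9b (0.78 ± 0.39, adjusted p = 0.138) and Serpina3n (-0.59 ± 0.55, adjusted p = 0.406) did not pass. All 3 calls were lost without parental anti-PD-1 replicate 3, where Serpina3g had an adjusted p of 0.0689, Serpinb6b of 0.113 and Serpinb9 of 0.101. They were also lost without UV2 anti-PD-1 replicate 3, where the adjusted p was 0.0569 for Serpina3g, 0.112 for Serpinb6b and 0.0814 for Serpinb9.

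Under isotype antibody only Serpina3g was called of the 6 (2.45 ± 0.40, adjusted p = 0.0214), with 1.29% of all genes called. Serpinb9 (1.01 ± 0.24, adjusted p = 0.0573), Serpina3f (2.30 ± 0.55, adjusted p = 0.0617) and Serpina3n (-2.07 ± 0.55, adjusted p = 0.0794) did not overlap between the lines but did not pass the test, and Serpina3g did not overlap either. UV2 lay wholly above parental isotype for 10.4% of all genes and wholly below for 9.15%. The Serpina3g call was lost without parental isotype replicate 1 (adjusted p = 0.139) or 2 (adjusted p = 0.109), and without UV2 isotype replicate 2 (adjusted p = 0.116) or 3 (adjusted p = 0.0502). Without UV2 isotype replicate 1, Serpinb9 (adjusted p = 0.0323), Serpina3f (adjusted p = 0.0459) and Serpinb6b (adjusted p = 0.0306) passed as well.

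**Figure D2:**
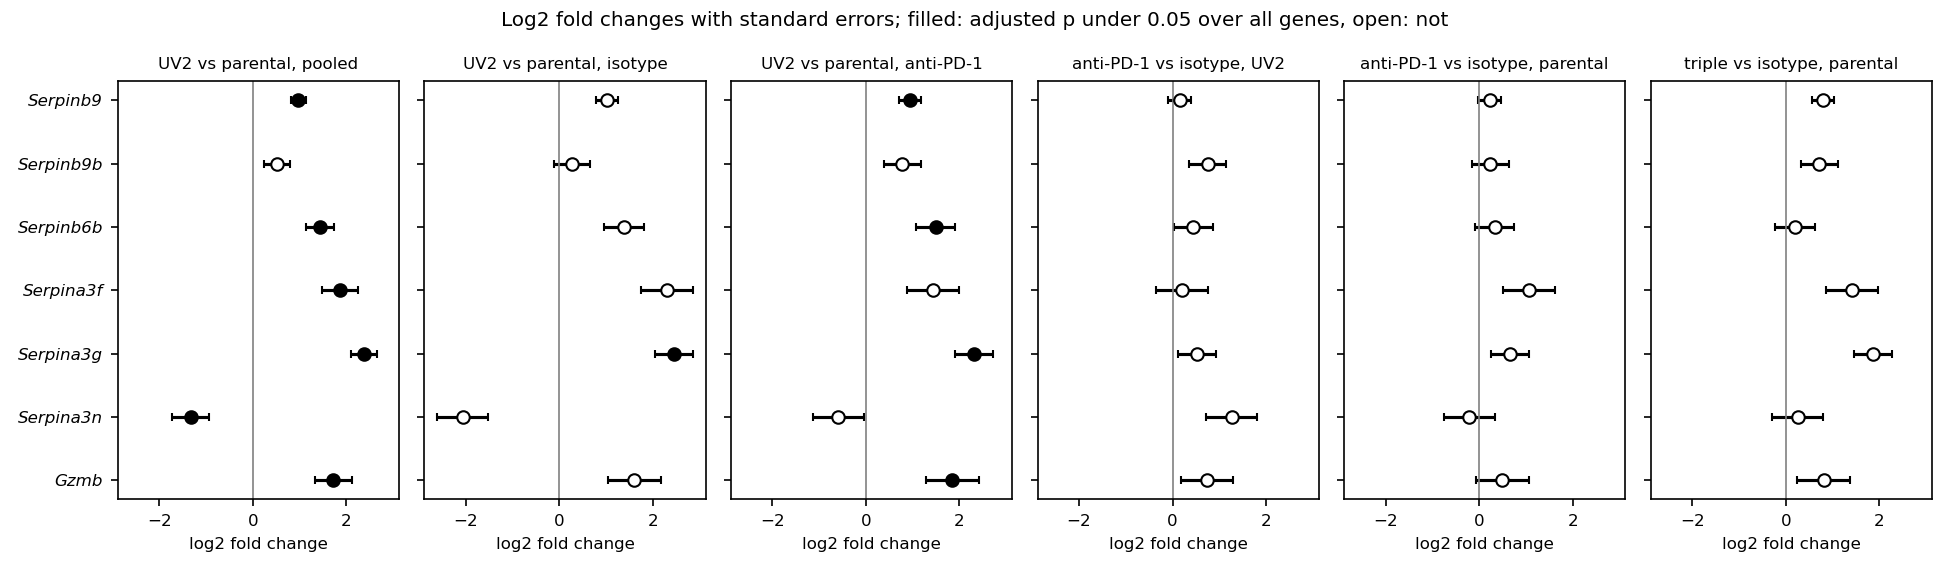
Log2 fold changes of log2(TPM + 1) with standard errors for the 6 serpins and Gzmb in 6 comparisons. Filled points have an adjusted p under 0.05 over all genes, and these appear only in the 3 panels that set UV2 against parental tumors, where Serpina3n is the member to the left of 0.

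No member passed the test for anti-PD-1 against isotype in UV2 or in parental tumors. In parental tumors limma called 0% of all genes, with 83 of 13592 at an unadjusted p under 0.05, and the adjusted p of all members was 1. The largest values were those of Serpina3f (1.07 ± 0.55) and Serpina3g (0.67 ± 0.40). Every parental anti-PD-1 library of Serpina3f exceeded every isotype library, as did 2.7% of all genes. In UV2 tumors 0 of 6 members and 0.0147% of all genes were called by limma, with 1245 genes and 1 member at an unadjusted p under 0.05, and no member lay wholly above isotype (5.7% of all genes) or wholly below (7.28%). Serpina3n had the largest value, with 132.5 ± 77.2 TPM under anti-PD-1 and 54.9 ± 41.9 TPM under isotype (SD, n = 3 each; log2 fold change 1.26 ± 0.55, unadjusted p = 0.0383, adjusted p = 0.542). The anti-PD-1 effect on Serpina3n differed between UV2 and parental tumors by 1.47 ± 0.77, which did not pass (adjusted p = 0.800), and 0% of all genes passed this test, with 404 at an unadjusted p under 0.05.

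Triple therapy set against isotype in parental tumors called 0 of 6 members and 0.0221% of all genes by limma, with 1714 genes and 3 members at an unadjusted p under 0.05. Serpina3g had 105.7 ± 21.2 TPM after triple therapy and 29.0 ± 10.1 TPM under isotype (SD, n = 3 each; log2 fold change 1.86 ± 0.40, unadjusted p = 0.000492, adjusted p = 0.266). Serpinb9 (0.79 ± 0.24, adjusted p = 0.320), Serpina3f (1.41 ± 0.55, adjusted p = 0.351) and Serpinb9b (0.72 ± 0.39) also lay wholly above isotype, as did Serpina3g. The same held for 12.7% of all genes, and 3.39% lay wholly below. Serpinb6b (0.20 ± 0.42) and Serpina3n (0.26 ± 0.55, adjusted p = 0.862) overlapped. The keratinocyte marker sums given above, and a fibroblast marker sum of 6318 to 28295 TPM after triple therapy and 4089 to 4601 TPM under isotype, moved with this comparison; their part in it was not tested.

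Against parental anti-PD-1, triple therapy called 0% of all genes, with 1411 at an unadjusted p under 0.05, and Serpina3g had the largest log2 fold change of the members (1.2 ± 0.40, adjusted p = 0.394). Its 3 triple therapy libraries lay above the 3 anti-PD-1 libraries, as did those of 7.3% of all genes, and 5.01% lay wholly below.

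Gzmb also rose in UV2 tumors. It encodes granzyme B, which is given above as a target of Serpinb9 and Serpina3n only. Gzmb had 161.2, 78.8 and 167.1 TPM in UV2 anti-PD-1 tumors, 30.8, 97.7 and 148.5 TPM in UV2 isotype tumors, 21.0, 65.2 and 61.2 TPM after triple therapy, 40.1, 29.0 and 37.4 TPM in parental anti-PD-1 tumors, and 27.2, 14.3 and 38.0 TPM in parental isotype tumors. UV2 isotype replicate 1 was the only UV2 library within the parental range. Over both treatments UV2 averaged 114.0 ± 54.1 TPM and parental tumors 31.0 ± 9.68 TPM (SD, n = 6 each), a log2 fold change of 1.72 ± 0.40 (adjusted p = 0.0085).

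Each serpin was then set over Gzmb in the same library, as the difference of log2(TPM + 1) values. For members other than Serpinb9 and Serpina3n, Gzmb is a shared reference here and not the gene of a named target. Because Gzmb itself rose, the median gene had a relative log2 change of -1.84 in UV2 against parental tumors, and 89% of 13591 genes were lower and 0.0589% higher at an exact permutation p under 0.05. 2 members passed in the lower direction, and a share of genes this large makes that no result about them. Serpina3n had the lowest relative change of the 6, at -3.05 on the log2 scale. Its TPM per TPM of Gzmb was 0.983, 2.45 and 0.274 in UV2 anti-PD-1 tumors, 0.971, 0.323 and 0.696 in UV2 isotype tumors, 6.998, 5.19 and 3.10 in parental anti-PD-1 tumors, and 8.90, 12.6 and 4.55 in parental isotype tumors. No UV2 library reached the lowest parental one. In an exact two-sided permutation test within isotype and within anti-PD-1 tumors, with 400 arrangements, its p was 0.005, the smallest they can give, as it was for 1522 genes. The relative change was lower still in 2.61% of all genes. Serpinb9b had a relative change of -1.20 (exact permutation p = 0.015), less negative than that of the median gene, and its own level did not pass the test.

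The relative changes of the other members were nearer to 0 and also above that of the median gene. Serpinb9 had a log2 change of -0.74 relative to Gzmb (exact permutation p = 0.055), Serpinb6b of -0.28 (exact permutation p = 0.23), Serpina3f of 0.14 (exact permutation p = 0.74) and Serpina3g of 0.66 (exact permutation p = 0.05). In means, Serpinb9 was at 0.237 ± 0.0793 TPM per TPM of Gzmb in UV2 anti-PD-1, 0.383 ± 0.232 in UV2 isotype, 0.427 ± 0.0875 in parental anti-PD-1 and 0.557 ± 0.298 in parental isotype tumors (SD, n = 3 each). Serpinb6b ran between 0.174 ± 0.0393 in UV2 anti-PD-1 and 0.228 ± 0.0703 in parental isotype tumors. A p above the threshold does not show that a serpin tracked Gzmb. By limma over all genes, relative to Gzmb, Serpina3n (adjusted p = 4.05e-08) and Serpinb9b (adjusted p = 0.0443) were called lower, as were 87.6% of 13591 genes, and 0.0368% were called higher. All genes share the Gzmb value of their library in both tests. In the limma fit relative to Gzmb, the degrees of freedom borrowed from other genes (the prior) had an infinite median. In the fit of levels that median was 2.93. P-values of the relative fit thus rest mostly on a spread shared over genes, not on each gene's own 10 residual degrees of freedom. They can be larger or smaller than those alone would give, and their size is not relied on.

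**Figure D3:**
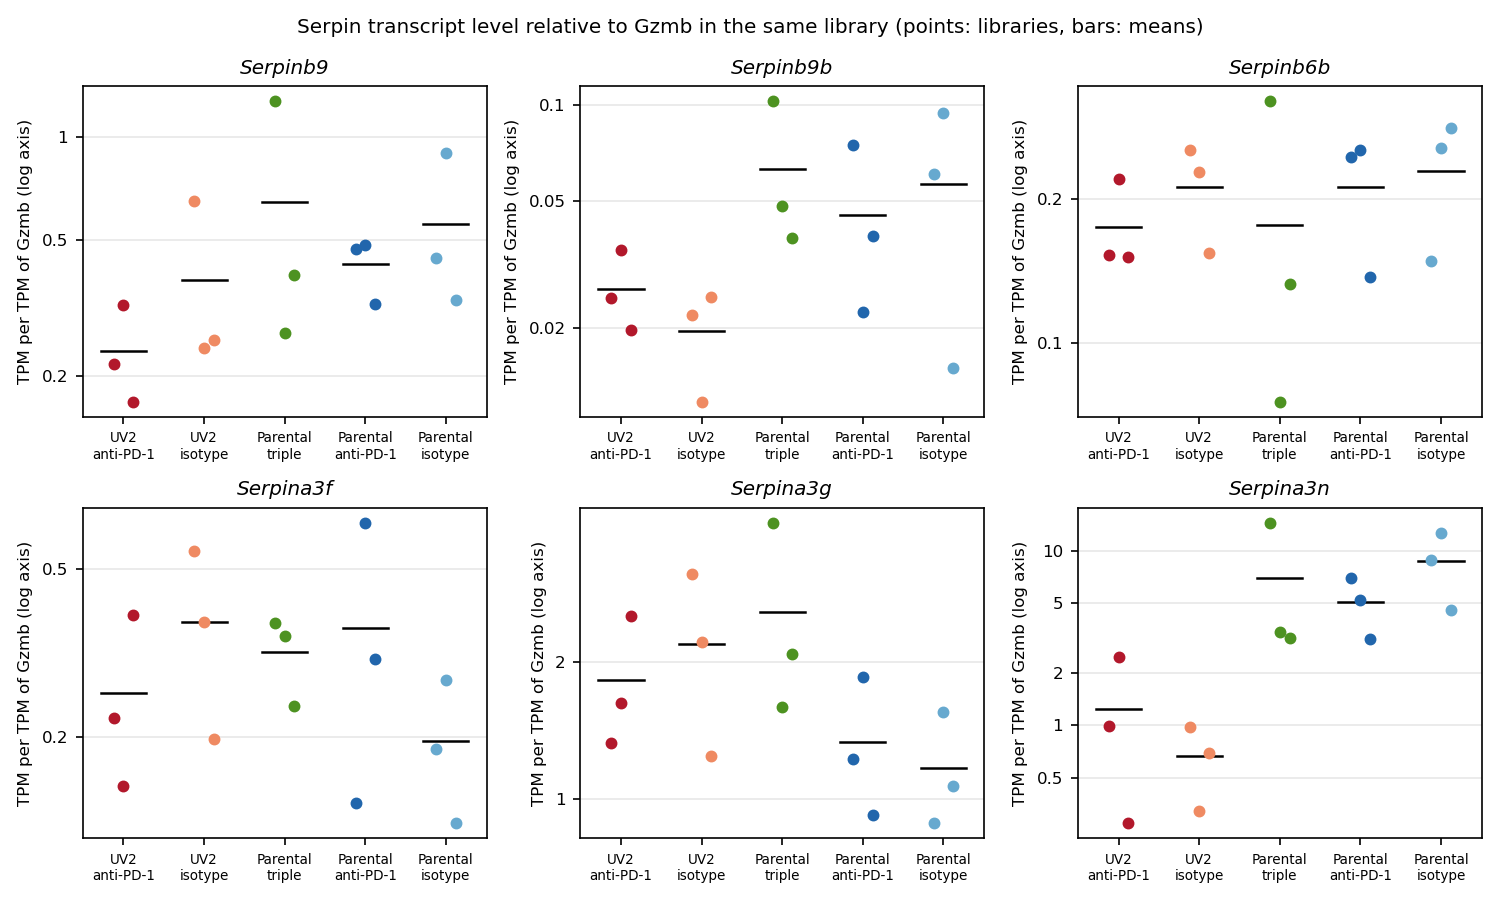
TPM of each serpin per TPM of Gzmb in the same library, on logarithmic axes, with 1 point per library and a bar at the mean of each group of 3. Serpina3n is at 2.45 or less in all UV2 libraries and at 3.10 or more in all parental libraries, while Serpinb6b and Serpina3f overlap between UV2 and parental tumors.

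Relative to Gzmb, no member was called in the other comparisons tested, which were triple therapy set against isotype in parental tumors (0.11% of genes called higher, 0.0221% lower) and anti-PD-1 set against isotype, for UV2 and for parental tumors (0% each). With 3 against 3 libraries, 20 arrangements allow no p under 0.1. Serpina3g relative to Gzmb after triple therapy reached it: 4.06, 1.59 and 2.09 TPM per TPM of Gzmb after triple therapy, against 0.883, 1.55 and 1.07 under isotype (log2 change 1.06, exact permutation p = 0.1). Of the 3 triple therapy libraries, the one with the highest ratio had the least Gzmb, the largest keratinocyte sum and the least Eif2s3y (0.29 TPM).

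Across the 15 libraries, 5 of 6 serpins correlated with Gzmb in log2(TPM + 1), in 6 relations tested by permutation with 100000 resamples and adjusted over the 6. Libraries were shuffled across all 5 groups, so these p-values also carry the difference between the lines. Serpinb6b had r = 0.87 and rho = 0.85 (permutation p = 6e-05 and 0.00012, adjusted 0.00018 and 0.00036), and Serpina3g r = 0.86 and rho = 0.87 (permutation p = 5e-05 and 7e-05, adjusted 0.00018 and 0.00036). Serpina3f had r = 0.83 and rho = 0.77 (permutation p = 0.00018 and 0.00107, adjusted 0.00036 and 0.00214). Serpinb9 had r = 0.74 and rho = 0.66 (permutation p = 0.00195 and 0.00893, adjusted 0.00292 and 0.0122), and Serpinb9b r = 0.63 and rho = 0.65 (permutation p = 0.0137 and 0.0102, adjusted 0.0164 and 0.0122). Serpina3n did not correlate detectably (r = -0.37, rho = -0.37, permutation p = 0.175 and 0.168). Without the 2 libraries farthest from the median Gzmb, UV2 anti-PD-1 replicates 1 and 3, r was 0.80 for Serpinb6b, 0.80 for Serpina3g, 0.73 for Serpina3f, 0.66 for Serpinb9, 0.49 for Serpinb9b and -0.30 for Serpina3n. The Serpinb9b relation no longer held (permutation p = 0.0921), nor did that of Serpinb9 by rho (0.50, permutation p = 0.0853). Correlations this high with Gzmb were found for 0.596% of 13591 genes at the level of Serpinb6b, 0.699% for Serpina3g, 1.70% for Serpina3f, 4.39% for Serpinb9 and 8.63% for Serpinb9b.

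The relation was then taken within groups and within each line. After removing group means, r with Gzmb was 0.71 for Serpina3g, 0.68 for Serpinb6b and 0.59 for Serpina3f. It was 0.50 for Serpinb9b, 0.32 for Serpinb9 and 0.07 for Serpina3n, and these values were not tested. Over the 9 parental libraries, triple therapy included, no relation passed an exact permutation test, and the smallest adjusted p was 0.236. There r was 0.65 for Serpina3g (rho 0.63; exact permutation p = 0.058 and 0.076), 0.62 for Serpina3f (rho 0.57; exact permutation p = 0.0788 and 0.121), 0.40 for Serpinb6b, 0.39 for Serpinb9b, 0.26 for Serpinb9 and -0.07 for Serpina3n. Within the 6 UV2 libraries Serpinb6b followed Gzmb in rank without exception (r = 0.97, rho = 1.00, exact permutation p = 0.00139 and 0.00278, adjusted over 6 relations 0.00833 and 0.0167). How many of all genes did so over these 6 libraries was not tested. In UV2, r was 0.85 for Serpinb9b (exact permutation p = 0.0292), 0.83 for Serpinb9 (0.0347 by the same test) and 0.82 for Serpina3g (0.0556), none past the threshold after adjustment (adjusted 0.0694, 0.0694 and 0.0833), and their rho was 0.77, 0.71 and 0.83. Serpina3f had 0.70 (exact permutation p = 0.113) and Serpina3n 0.41 (exact permutation p = 0.453). Without the 2 UV2 libraries farthest from the UV2 median of Gzmb, r over the remaining 4 was 0.85 for Serpinb6b, 0.95 for Serpinb9b, 0.68 for Serpinb9, 0.38 for Serpina3g, 0.34 for Serpina3f and 0.64 for Serpina3n.

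**Figure D4:**
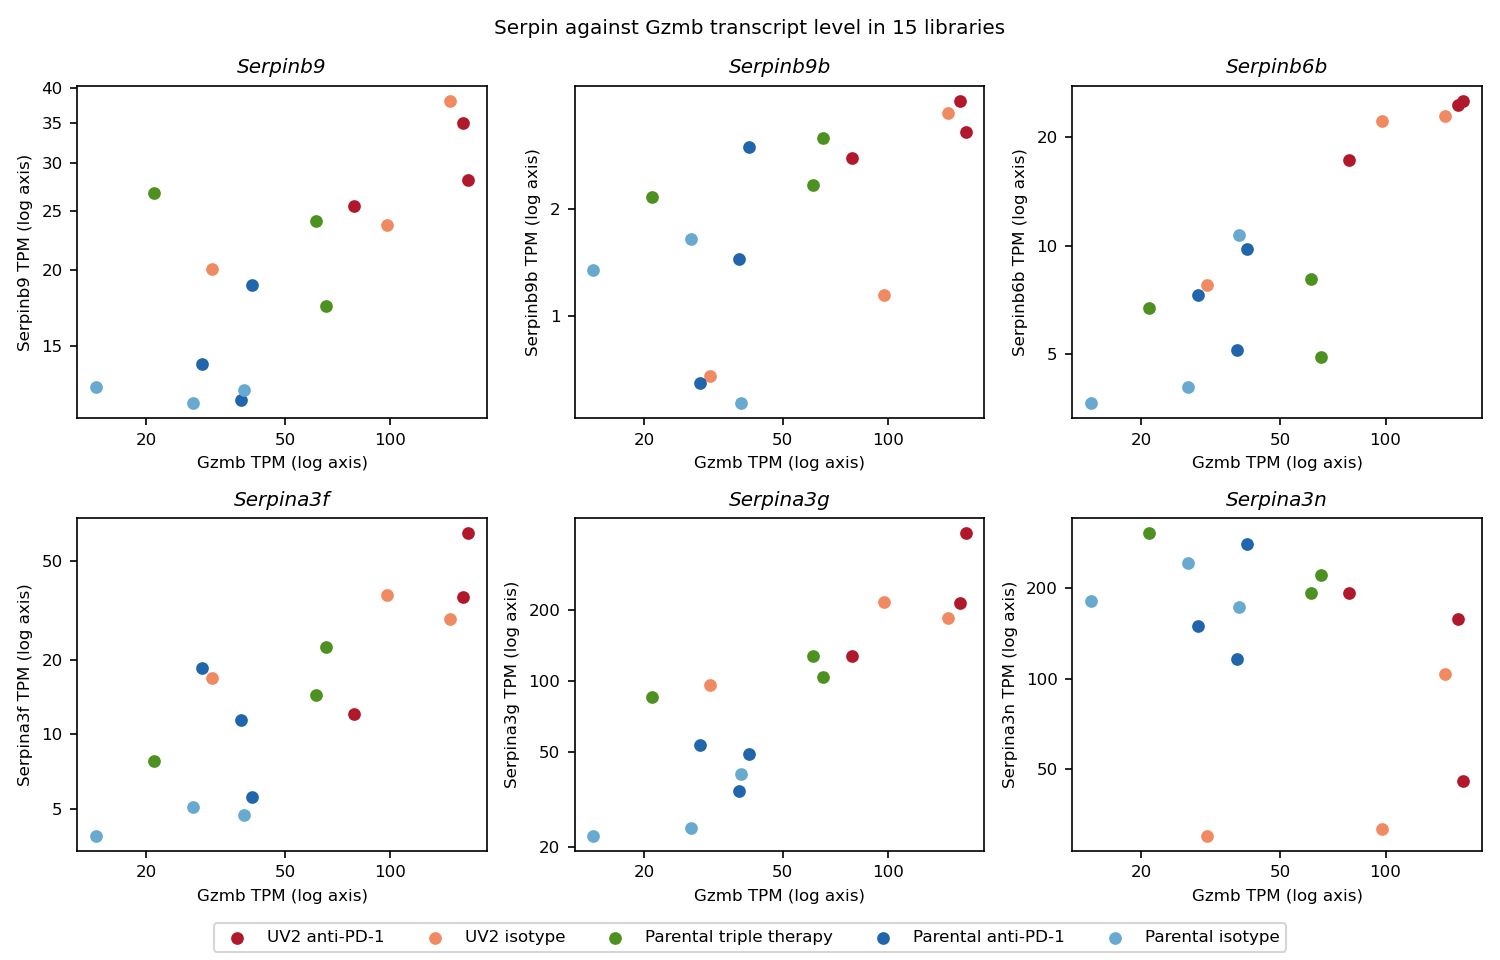
Serpin TPM against Gzmb TPM in each of the 15 libraries, on logarithmic axes, coloured by group. Serpinb6b rises with Gzmb along the UV2 points (r = 0.97 over 6 libraries), the parental points alone are looser (r = 0.40 over 9), and Serpina3n shows no such trend (r = -0.37 over 15).

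Among the members, Serpina3f and Serpina3g varied together (r = 0.89 over 15 libraries and 0.71 after removing group means), as did Serpinb6b and Serpina3g (0.83 and 0.77). Serpina3n ran against Serpina3f (-0.62 and -0.53) and Serpina3g (-0.50 and -0.35). With Serpinb9 its values were -0.23 and 0.62, with Serpinb9b 0.27 and 0.58, and with Serpinb6b -0.45 and 0.18. These are descriptions, and Serpina3f and Serpina3g share transcript stretches. The 3 genes whose pattern over the 15 libraries was most like that of Serpinb6b were Ltb, Rhoh and Lck, each at r = 0.98; Lck is a kinase of the T cell receptor. For Serpinb9 they were Rasgrp1, Cybb (the NADPH oxidase subunit of phagocytes) and Tmem229b, each at 0.98. Those of Serpina3f were Gm12250, Gm12185 and Ifi47, each at 0.97; Ifi47 is an interferon-inducible GTPase. Serpina3g was most like Zfp455 (0.97), Aldh1b1 (0.96) and Samhd1 (0.96), Serpina3n most like Cd300lb (0.96), Rgs3 (0.95) and Ptgir (0.93), and Serpinb9b most like Ero1lb (0.90), Zdhhc18 (0.88) and Ddhd1 (0.87).

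Of 63 serpin symbols in the table, 10 were at 0 in every library and 21 passed the filter. Of the 15 that passed and are not members, 2 rose (13.3%) and 3 fell (20%) in UV2 against parental tumors over both treatments, shares near the 13.4% and 19.6% of all genes. Serpina3i of the Serpina3 cluster rose (3.06 ± 1.14 TPM in UV2 and 1.44 ± 0.302 TPM in parental tumors, SD, n = 6 each; 0.69 ± 0.19, adjusted p = 0.0183), and Serpina3m fell (0.728 ± 0.691 and 3.34 ± 1.61 TPM, -1.33 ± 0.39, adjusted p = 0.023). Serpinb6a, a relative of Serpinb6b with a broad tissue distribution, fell slightly (378.1 ± 58.2 TPM in UV2 and 449.9 ± 40.9 TPM in parental tumors, -0.26 ± 0.09, adjusted p = 0.0451). Serpinf1, which encodes pigment epithelium-derived factor, rose (0.86 ± 0.20, adjusted p = 0.00926).

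Among 10 tested granzyme and perforin genes, 4 were called higher in UV2 than in parental tumors and none was called lower. The 4 were Gzmb, Gzma, Gzmk (1.60 ± 0.42, adjusted p = 0.0135) and Prf1, perforin (1.2 ± 0.38, adjusted p = 0.0308). Of all genes 13.4% were called higher and 19.6% lower. The list's median log2 fold change was 0.30, beside -0.12 for all genes, and only 6 of the 10 values were positive. The summed level of the 11 listed genes was 229 to 539 TPM in UV2 anti-PD-1 and 95.6 to 516 TPM in UV2 isotype tumors. In parental tumors it was 84.9 to 585 TPM under anti-PD-1 and 119 to 266 TPM under isotype, so the lines overlapped. Gzmg, a granzyme of the cluster around Gzmb, had 5.13 ± 5.19 TPM in UV2 and 45.0 ± 46.9 TPM in parental tumors and did not pass (-2.54 ± 1.01, adjusted p = 0.0688). Of 10 genes of granule loading and release, 8 rose, among them Nkg7, a cytotoxic granule membrane protein (2.25 ± 0.40, adjusted p = 0.00272), Unc13d and Stxbp2, which act in granule fusion (1.09 ± 0.20 and 1.06 ± 0.20), and Ctsc, the protease that activates progranzymes (0.93 ± 0.19, adjusted p = 0.00479).

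Among 11 genes of granzyme uptake and death, 4 rose and 1 fell, beside 13.4% and 19.6% of all genes, with a median log2 fold change of 0.24. Bulk tissue does not show which cells held these transcripts or those of the granule genes. Bid, a granzyme B substrate, rose (24.1 ± 3.21 TPM in UV2 and 15.1 ± 2.03 TPM in parental tumors, SD, n = 6 each; 0.64 ± 0.10, adjusted p = 0.00177), as did M6pr, the cation-dependent mannose 6-phosphate receptor (0.53 ± 0.11). Igf2r, a mannose 6-phosphate receptor described as a granzyme B receptor, fell to 41.8 ± 23.0 TPM in UV2 tumors, against 104.9 ± 46.7 TPM in parental tumors (-1.35 ± 0.39, adjusted p = 0.0202).

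Immune cell markers were also called higher in UV2 than in parental tumors. In this comparison 13.4% of all genes were called higher and 19.6% lower. Of 10 T and NK cell markers, 9 rose in UV2 against parental tumors over both treatments, among them Cd3d (2.21 ± 0.42, adjusted p = 0.00339), and their summed level was 343 to 474 TPM in UV2 anti-PD-1, 70.6 to 309 TPM in UV2 isotype, 50.6 to 66.7 TPM in triple therapy, 37.7 to 107 TPM in parental anti-PD-1 and 42.2 to 133 TPM in parental isotype tumors. Of 10 dendritic cell markers 6 rose, led by Irf8 (1.48 ± 0.21, adjusted p = 0.00118), and of 7 macrophage markers 4 rose, led by Fcgr1 (1.37 ± 0.19, adjusted p = 0.00118). The dendritic cell sum was 337 to 402 TPM in UV2 anti-PD-1, 302 to 362 TPM in UV2 isotype, 194 to 250 TPM in triple therapy, 191 to 255 TPM in parental anti-PD-1 and 179 to 235 TPM in parental isotype tumors. The macrophage sum was 8547 to 9841 TPM in UV2 anti-PD-1, 4871 to 6413 TPM in UV2 isotype, 4474 to 7653 TPM in triple therapy, 2841 to 4686 TPM in parental anti-PD-1 and 2924 to 4406 TPM in parental isotype tumors. Of 7 fibroblast markers 1 rose and 1 fell, and of 8 keratinocyte and 6 muscle markers none was called. After triple therapy against isotype, 6 of 6 members had a positive log2 fold change (median 0.76), as did 64.2% of all genes. Of T and NK cell markers 2 of 10 were positive (median -0.29). Positive values were found for 6 of 10 dendritic cell markers (median 0.13) and 7 of 7 macrophage markers (median 0.57). None of these genes was called. The part of cell composition in the serpin values was not tested.

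Interferon response genes were also higher in UV2 than in parental tumors over both treatments, where 13.4% of all genes were called higher. Of 18 interferon gamma response genes 14 rose and none fell, including Socs1 (1.69 ± 0.26, adjusted p = 0.00154) and Irf1 (1.15 ± 0.19, adjusted p = 0.0022), and of 13 type I interferon response genes 12 rose, including Oas1a (2.01 ± 0.27, adjusted p = 0.00117) and Irf7 (2.0 ± 0.33, adjusted p = 0.00195). Under anti-PD-1 against isotype in UV2 tumors, all 6 members had a positive log2 fold change (median 0.48), beside 37.7% of all genes. So did 14 of 18 interferon gamma response genes (median 0.28) and 0 of 13 type I genes (median -0.99), with none of the members or listed genes called. After triple therapy against isotype, 6 of 6 members, 17 of 18 interferon gamma response genes (median 0.87) and 3 of 13 type I genes (median -0.28) had a positive value, again none called. The share of all genes with a positive value was 64.2%. The summed type I level was 797 to 2570 TPM in UV2 anti-PD-1, 2119 to 3429 TPM in UV2 isotype, 471 to 790 TPM in triple therapy, 367 to 961 TPM in parental anti-PD-1 and 675 to 749 TPM in parental isotype tumors. Of 11 tested acute-phase and Stat3 response genes, the class in which Serpina3n is usually counted, 1 rose (Bcl3, 0.56 ± 0.18, adjusted p = 0.0318) and 1 fell (Il6, -1.32 ± 0.31, adjusted p = 0.0086), and the median log2 fold change was -0.22. Summed over the 12 listed genes the level was 367 to 814 TPM in UV2 anti-PD-1, 254 to 439 TPM in UV2 isotype, 780 to 2351 TPM in triple therapy, 399 to 1364 TPM in parental anti-PD-1 and 366 to 954 TPM in parental isotype tumors. The part of this response in the Serpina3n values was not tested.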

How the data were processed

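The authors deposited 1 table of TPM values per gene for 15 bulk tumor libraries, 3 in each of 5 groups. Per the submitters' processing notes the tools were Bowtie2 and RSEM on mm10 (GRCm38); their versions are not given in the sources used here. TPM holds no read depth, so the depth of each library and the counting error of each level are unknown, and no count test was run. Genes are relative to the total of their library. The fit used limma 3.58.1 in R 4.3.3 on log2(TPM + 1) for 13592 genes with at least 1 TPM in at least 3 libraries, with all 15 libraries, 1 coefficient per group, a trended robust prior and 10 residual degrees of freedom. P-values were adjusted by Benjamini-Hochberg over all genes, in 8 comparisons, and a call was an adjusted p under 0.05. Fold changes are on the log2(TPM + 1) scale, which understates those of low genes. A second fit subtracted the log2 level of Gzmb in 4 comparisons, and exact permutation tests of these differences and their share over all genes were added after seeing the data. The median prior degrees of freedom of this second fit were infinite. The script was tested on simulated data.

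Members and gene lists were chosen with earlier results of these data known. Genes named were the members, Gzmb, up to 4 called genes of a list with the smallest p, and the 3 genes most correlated with each member; Gzmm, Gzmg and Serpinf1 were named after their values were seen. Some genes of these lists are not reported here. Promoter windows came from RefSeq (GRCm38.p6) and positions from GENCODE (GRCm38). The symbols Serpina3l, Trac and Adgre1 were looked for and not used here.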

Additional observations from a re-analysis of the deposited data

How the results depend on the processing

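Over both treatments, 5 members were called between UV2 and parental tumors, and this count was 5 under each other pseudocount, filter, scaling, subset and weighting tried, and 4 to 5 with 1 library left out. Of the other counts of members called, the library weights of limma moved the isotype line comparison to 5 (1 without weights), triple therapy against isotype to 5, triple therapy against anti-PD-1 to 2, anti-PD-1 against isotype in UV2 to 1 and the difference of anti-PD-1 effects to 1 (0 without weights in each); relative to Gzmb they gave 3 for anti-PD-1 in parental, 6 for anti-PD-1 in UV2, 6 for triple therapy against isotype and 4 for the line (2 without weights). These weights ran from 0.179 to 73.8 and their estimation did not converge, so they are not relied on. The isotype line comparison gave 2 under median-of-ratios scaling, 2 under quantile normalization and 0 with only the compared groups fitted, where Serpina3g had an adjusted p of 0.0525. The line comparison relative to Gzmb gave 1 with a pseudocount of 0.1 and 1 with a filter of 5 TPM. Leaving out 1 library gave 0 to 4 for the isotype line comparison, 0 to 4 for the anti-PD-1 line comparison (3 with all), 1 to 3 for the line relative to Gzmb, and 0 for every other count. Gzmb lost its call between the lines under anti-PD-1 (1.84 ± 0.57, adjusted p = 0.0359) without the filter (adjusted p = 0.0532) and without parental anti-PD-1 replicate 1, 2 or 3 or UV2 anti-PD-1 replicate 1 or 3 (adjusted p = 0.0735, 0.071, 0.106, 0.0653 and 0.136).

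Some values that passed no test changed sign. With library weights these were Serpina3f for anti-PD-1 in UV2 (-0.46), Serpina3n for triple therapy against isotype (-0.29) and for the line under anti-PD-1 (0.32), Serpinb6b for triple therapy against anti-PD-1 (0.38), and Serpinb9b for anti-PD-1 in parental (-0.073) and for the line under isotype (-0.16). Quantile normalization turned Serpinb6b for triple therapy against isotype (-0.21) and Serpinb9 for the difference of anti-PD-1 effects (0.12), and median-of-ratios scaling turned that of Serpinb9 (0.13) and of Serpina3g (0.064).

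With 1 library left out, the signs that changed and the range over the 15 leave-outs were as follows. The difference of anti-PD-1 effects gave -0.40 to 0.71 for Gzmb, -0.59 to 0.26 for Serpina3g, -0.36 to 0.36 for Serpinb6b and -0.26 to 0.19 for Serpinb9. Triple therapy against anti-PD-1 gave -0.084 to 0.70 for Serpina3f and -0.34 to 0.063 for Serpinb6b. Anti-PD-1 in UV2 gave -0.32 to 0.85 for Serpina3f, -0.029 to 0.69 for Serpinb6b and -0.034 to 0.41 for Serpinb9. Anti-PD-1 in parental gave -0.57 to 0.062 for Serpina3n and -0.089 to 0.55 for Serpinb9b. The line under anti-PD-1 gave -0.98 to 0.044 for Serpina3n. Triple therapy against isotype gave -0.041 to 0.62 for Serpinb6b. The line under isotype gave -0.17 to 0.57 for Serpinb9b. The cause of these changes was not tested. Median-of-ratios scaling moved the median of all genes from -0.12 to 0.02 for the pooled line comparison and from -0.21 to 0.03 for the line under anti-PD-1, and the direction of the 5 pooled calls held under it.

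The replicate numbers in the titles did not pair the libraries: over 30 pairs with the same number in different groups, the correlation of deviations ran from -0.54 to 0.47 (median -0.08). A fit with the replicate number as a block called 5 members for the pooled line comparison, 3 under anti-PD-1, 1 under isotype and 0 in every other comparison of levels, and 2 for the line relative to Gzmb, as without the block.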
